A study of Rattus norvegicus with 24 samples.

Results

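The late step of collagen sandwich culture is the change in gene expression of primary rat hepatocytes between day 3 and day 8 after the upper collagen layer was added. It rests on 6 of the 24 arrays of the series, 3 taken on day 3 and 3 on day 8, and these were picked by their sample titles, not by any measured value. In both groups freshly isolated cells were seeded on a collagen-coated well and covered with a further layer of collagen 24 h later, which makes the sandwich. The cultures of the series without that cover, sampled on the same days, are called monolayer here. All cultures shared 1 medium, DMEM with fetal bovine serum, epidermal growth factor, insulin, glucagon and hydrocortisone, changed daily. Rat strain, sex and age, and whether the 3 replicates of a group came from separate animals or separate wells, are not given by the labels, so p-values measure only the spread between these arrays, which may be technical.

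Hepatocytes on a flat, open matrix spread, build actin stress fibres and lose liver-specific transcripts, whereas cells overlaid with collagen keep a cuboidal shape and form bile canaliculi. Liver metabolism is set by opposing hormones: insulin drives fat synthesis through the factor SREBP-1c, while glucagon, glucocorticoid and free fatty acids drive glucose output and, through the nuclear receptor PPAR-alpha, fat oxidation. Loss of polarity and a stiff surface activate the coactivator YAP, whose targets include the matricellular gene Ccn2.

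Levels are log2 values of Affymetrix probe sets, a difference is the day 8 mean minus the day 3 mean on that scale, and SE is its standard error in the limma fit. Where several probe sets name a gene, the brightest on average over the 24 arrays stands for it. A fold is given where the lower group mean reached 5.62, the median of all values tested, since no detection calls were used and the background of dimmer genes is unknown. Probe set levels correlated at 0.993 to 0.995 between arrays of 1 day and at 0.986 to 0.989 between arrays of the 2 days. The 3' minus 5' difference of beta-actin, a measure of RNA integrity, was 1.03 ± 0.11 on day 3 and 1.02 ± 0.16 on day 8 (SD, n = 3 each; exact permutation test, two-sided, p = 0.80, where 0.1 is the smallest p possible). For GAPDH it was 0.370 ± 0.077 and 0.379 ± 0.088 (exact permutation p = 0.90), and for hexokinase 1.49 ± 0.17 and 1.66 ± 0.05 (exact permutation p = 0.30). Of 13 hepatocyte-defining markers measured, none lay below 5.62 on both days, and their summed level, which the brightest transcripts set, was 16.95 to 17.02 on day 3 and 16.94 to 17.01 on day 8. Single markers moved: 5 rose (Cyp2e1, Tat, Apob, Ttr and Apoa1; 2 to 4 with 1 array left out in turn) and 4 fell (Asgr2, Fgb, Fga and Hnf4a). Albumin, Alb, lay between 14.98 and 15.02 on all 6 arrays, near the top of the scale. In RNA of a whole culture, fewer cells of a type and less RNA per cell cannot be told apart.

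Between day 3 and day 8 the sandwich cultures changed in 3470 of 31042 probe sets (11.2%) at an adjusted p under 0.05 (limma, Benjamini-Hochberg), with 1733 higher and 1737 lower. The rises were the larger changes: 275 of the higher probe sets but 87 of the lower ones reached 2-fold. Without replicate 2 of day 3 the count of lower probe sets was 1027, and with only the 6 arrays in the fit it was 1035. Read by gene, 2148 of 14217 genes (15.1%) passed, 996 of them higher (7.01%) and 1152 lower (8.1%). The 3 arrays of 1 day lay wholly above the 3 of the other for 3997 genes (28.1%) and for 2092 of the 2148 called genes. The median absolute difference of the called genes was 0.48, beside a median SE of 0.11 over all genes. Each group of genes below is to be read against these shares.

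**Figure D1:**
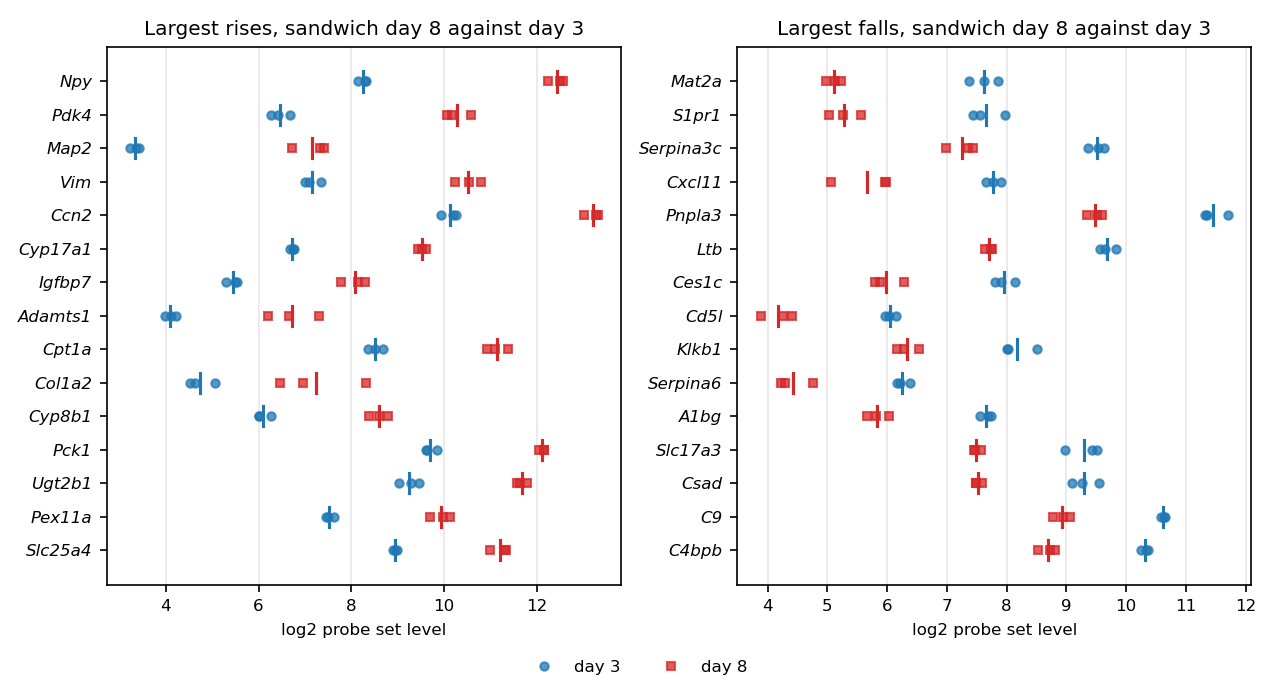
Log2 probe set level of the 15 genes with the largest rise (left) and the 15 with the largest fall (right) among called genes whose days do not overlap. Circles are the 3 arrays of day 3, squares the 3 arrays of day 8, and vertical bars the group means; Npy rose most, from a mean of 8.25 to 12.43, and Mat2a fell most, from 7.62 to 5.11.

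The largest rise was that of Npy, which encodes the secreted neuropeptide Y. Its level was 8.32, 8.14 and 8.28 on the day 3 arrays and 12.24, 12.56 and 12.50 on the day 8 arrays. The days were far apart, with a difference of 4.18 ± 0.17 (SE), or 18.2-fold (adjusted p = 3.16e-14, limma). Npy had already moved from 6.50 ± 0.17 on day 1 to 8.25 ± 0.09 on day 3 (SD, n = 3). Map2, a microtubule-associated protein best known from neurons, gave 3.43, 3.23 and 3.37 on day 3 and 7.32, 7.40 and 6.72 on day 8. That is a difference of 3.80 ± 0.20 (SE; adjusted p = 1.4e-12, limma) from a level among the dimmest on the array. The other Map2 probe set differed by 0.19, so the rise was seen by 1 of its 2 probe sets. Among the largest falls, S1pr1, a receptor of sphingosine phosphate, differed by -2.37 ± 0.14 and Cd5l, a macrophage-derived serum protein, by -1.87 ± 0.19 (SE). Their other probe sets differed by 0.09 and -0.12, so these falls too were seen by 1 probe set.

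Genes of fatty acid oxidation and ketone synthesis rose together. Of 43 measured members, 30 rose, 1 fell and 12 did not pass the test, and the median difference was 0.56 against -0.02 over all genes. The member with the largest rise, Pdk4, encodes the kinase that shuts off pyruvate dehydrogenase so that fat is burned in place of glucose. Its level was 6.68, 6.42 and 6.26 on day 3 and 10.07, 10.57 and 10.17 on day 8. All day 8 arrays lay above all day 3 arrays, a 14.1-fold rise of 3.81 ± 0.18 (SE; adjusted p = 2.8e-13, limma), and its other probe set gave 1.84. Cpt1a, the rate-limiting transferase that admits long-chain fatty acids to mitochondria, went from 8.51, 8.68 and 8.36 to 10.92, 11.38 and 11.09, with no overlap and a 6.11-fold rise (2.61 ± 0.10 SE; adjusted p = 3.16e-14, limma). From day 1 to day 3 Cpt1a had stayed between group means of 8.44 and 8.53.

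Among the other members, Pex11a, which makes peroxisomes divide, went from 7.49, 7.63 and 7.46 to 9.96, 10.13 and 9.70, a clear gap of 5.28-fold (2.40 ± 0.11 SE; adjusted p = 1.01e-13, limma). The microsomal fatty acid hydroxylases Cyp4a1 and Cyp4a3, close relatives whose probe sets may share signal, rose 3.73-fold and 2.34-fold. Eci1, a mitochondrial enoyl-CoA isomerase, rose 2.91-fold by its brighter probe set, while its other probe set differed by 0.10. Slc27a2, which imports and activates very long chain fatty acids, rose 2.18-fold. The lipid droplet coat gene Plin2 rose 1.88-fold and the lipase inhibitor Angptl4 2.40-fold, both outside the naming rule and chosen after their values were seen. The member that fell was Acox3, a peroxisomal oxidase of branched chains, by 0.62 ± 0.12 (SE; adjusted p = 0.000953, limma). The adenine nucleotide carrier Slc25a4, which is on no fat oxidation list, rose 4.80-fold, from 8.89, 8.99 and 8.95 to 10.98, 11.31 and 11.32.

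Fat synthesis went both ways. Of 37 measured genes of fatty acid and triglyceride synthesis, 7 rose and 10 fell, with a median of -0.06. Those that fell included the regulators and the synthase: Pnpla3, a lipase and acyltransferase under insulin control, gave 11.71, 11.35 and 11.33 on day 3 and 9.59, 9.52 and 9.34 on day 8. The gap between the days was 3.94-fold (-1.98 ± 0.16 SE; adjusted p = 4.49e-09, limma), and its other probe sets differed by -1.89 and -1.58. Fasn, fatty acid synthase, fell from 12.67, 12.41 and 12.07 to 11.18, 11.18 and 10.74, a 2.54-fold fall in arrays that did not overlap. G0s2, an inhibitor of lipolysis, fell 2.25-fold, and the lipogenic factors Srebf1 and Mlxipl, chosen after their values were seen, fell by 0.86 and 0.95. Fasn had climbed until then, from a mean of 10.59 on day 1 to 11.62 on day 2 and 12.38 on day 3. Lpin1, the phosphatidate phosphatase that also acts as a coactivator of fat oxidation, rose 2.13-fold. Scd, stearoyl-CoA desaturase, was at 13.34, 13.52 and 13.45 on day 3 and at 13.42, 13.68 and 13.44 on day 8, overlapping values with a difference of 0.08 (adjusted p = 0.841, limma).

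Cholesterol synthesis was lower. Of 21 measured members 11 fell and 1 rose, with a median of -0.35; without replicate 2 of day 3, or without replicate 1 of day 8, 7 fell. The falls were of modest size. Lss, the enzyme that closes the sterol rings, fell 1.50-fold, Hsd17b7 1.44-fold, Stard4, a sterol carrier, 1.38-fold by 1 of 3 probe sets (the others gave -0.09 and -0.06) and Pmvk, a kinase of the mevalonate pathway, 1.36-fold. The member that rose was Insig1, which holds the sterol sensor in the endoplasmic reticulum, by 0.43 (adjusted p = 0.0291, limma); leaving out 1 array in turn, its adjusted p ran from 0.0475 to 0.0949 and passed only without replicate 3 of day 3.

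Of 23 measured members of the glucose output, fructose and glycogen list, 6 rose (Pdk4, Pck1, Igfbp1, Pfkfb1, Gys2 and Pc) and 8 fell (Pklr, Khk, Tkfc, Ppp1r3b, Gcgr, Pck2, Ugp2 and Pygl), so genes of output and of storage or use were on both sides. Pck1, the committing enzyme of gluconeogenesis, gave 9.83, 9.60 and 9.63 on day 3 and 12.04, 12.15 and 12.15 on day 8, far apart and 5.38-fold higher (2.43 ± 0.16 SE; adjusted p = 1.27e-10, limma). Pklr, liver pyruvate kinase, which runs the opposite way, gave 10.04, 9.78 and 9.66 and then 8.27, 8.27 and 8.11. It fell 3.05-fold with no overlap (-1.61 ± 0.13 SE; adjusted p = 2.28e-09, limma), and its other probe set gave -1.56. Khk, ketohexokinase, the entry point of fructose, fell 2.23-fold. Igfbp1, a secreted IGF-binding protein that insulin represses, rose 1.92-fold, from 12.85, 12.89 and 12.90 to 13.84, 13.83 and 13.80, and its IGF axis list had 3 members higher and 5 lower of 23, where leaving out any 1 of the 6 arrays left 2 or 3 lower. Of 21 measured members of the list of glycolysis isoforms usually low in liver and of glucose uptake, 3 rose and 1 fell. Ldhb (3.33-fold) and Pfkp (3.16-fold), subunits of lactate dehydrogenase and phosphofructokinase, rose. The other calls were of the transporters Slc2a1, which rose, and Slc16a1, which fell, and each was lost in some fits with 1 array left out.

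**Figure D2:**
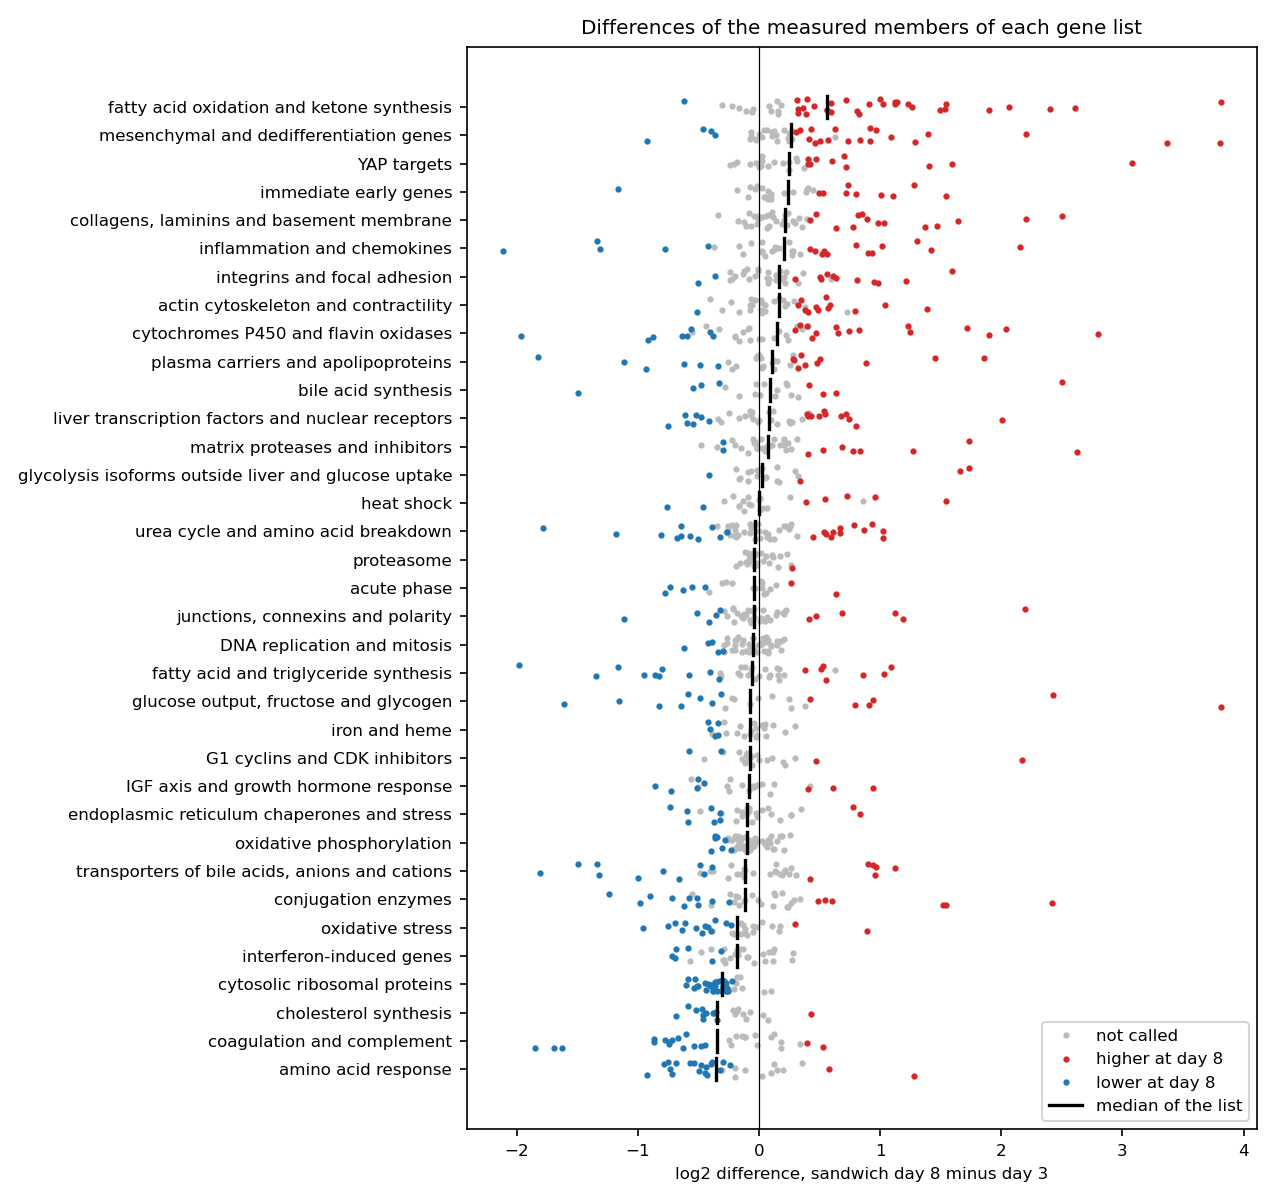
Log2 difference, day 8 minus day 3, of each measured member of the 35 gene lists of liver functions and cell processes, ordered by list median. Each point is 1 gene, red where called higher, blue where called lower and grey where not called, and black bars are list medians; fatty acid oxidation lies highest, at 0.56, and the amino acid response lowest, at -0.36.

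Single enzymes of amino acid breakdown moved in either direction. Of 55 measured genes of the urea cycle and amino acid breakdown, 12 rose and 11 fell, with a median of -0.04. Tat, tyrosine aminotransferase, a classic glucocorticoid and glucagon target, rose 1.53-fold, from 12.32, 12.10 and 12.30 to 12.86, 12.92 and 12.78. Got1, cytosolic aspartate aminotransferase, rose 1.91-fold and Gnmt, the glycine methyltransferase that consumes S-adenosylmethionine, 2.04-fold. Csad, which makes the taurine precursor hypotaurine, gave 9.09, 9.54 and 9.26 on day 3 and 7.48, 7.59 and 7.48 on day 8, a 3.43-fold fall with no overlap (-1.78 ± 0.17 SE; adjusted p = 3.98e-08, limma). Kmo, kynurenine monooxygenase, fell 2.27-fold. Cps1, the entry enzyme of the urea cycle, was at 12.48, 12.28 and 12.08 and then at 12.36, 12.39 and 12.23, which overlap and differ by 0.05 (adjusted p = 0.912, limma).

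The largest fall of all genes was in Mat2a, the form of methionine adenosyltransferase that most tissues and dividing or fetal hepatocytes use. Mat2a gave 7.63, 7.85 and 7.37 on day 3 and 5.13, 5.22 and 4.97 on day 8. The days did not overlap, and the difference was -2.51 ± 0.10 (SE; adjusted p = 3.16e-14, limma). Its other 2 probe sets differed by -1.18 and -0.08, so the size depends on the probe set. Mat1a, the form of adult hepatocytes, was at 12.90, 12.66 and 12.70 and then at 13.06, 13.04 and 12.96, a difference of 0.26 ± 0.11 (SE) that did not pass (adjusted p = 0.155, limma; 0.0157 after quantile normalization). Mat1a had gone from a mean of 11.28 on day 1 to 12.76 on day 3.

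Of 30 measured coagulation and complement genes 15 fell and 2 rose, with a median of -0.35. C9, the pore-forming complement protein, gave 10.58, 10.65 and 10.63 on day 3 and 9.06, 8.77 and 8.95 on day 8, a 3.23-fold gap (-1.69 ± 0.15 SE; adjusted p = 1.47e-08, limma). Its mean had been 11.42 on day 1 and 10.85 on day 2, so the sandwich level was lower at each later day. Klkb1, plasma prekallikrein, fell 3.61-fold and C4bpb, a chain of the C4b-binding protein, 3.09-fold, from 10.36, 10.34 and 10.25 to 8.52, 8.73 and 8.81. Fgb, the fibrinogen beta chain, fell 1.72-fold by its brightest probe set, while the others gave -0.24 and -0.08.

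Of 31 measured plasma carriers and apolipoproteins, 10 rose and 6 fell. Apoc1, a small apolipoprotein of chylomicrons and VLDL, rose 3.62-fold, from 10.16, 9.95 and 9.77 to 12.04, 11.76 and 11.65. Apoa4, made by liver mostly when fat export is high, went from 12.46, 12.28 and 12.14 to 13.82, 13.77 and 13.67, a 2.74-fold rise with no overlap (adjusted p = 1.88e-09, limma). Serpina6, the corticosteroid-binding globulin, fell by 1.83 and Itih2, a hyaluronan-binding inhibitor chain, by 0.93. The transthyretin gene Ttr rose 1.25-fold. With only the 6 arrays in the fit, 5 members of the list rose and the adjusted p of Ttr was 0.0707. The secreted inhibitor Serpina3c, which has close relatives in the rat genome, fell 4.77-fold, and A1bg, a plasma glycoprotein, 3.55-fold. Of 20 acute phase genes 2 rose and 5 fell, among them Crp, C-reactive protein (1.67-fold), and Apcs, serum amyloid P (1.47-fold). The others that fell were the fibrinogen genes Fgb, Fga and Fgg, which are also counted among the coagulation genes.

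Drug and steroid enzymes showed some of the largest changes in both directions. Of 42 measured members of the list of cytochromes P450 and flavin oxidases, 15 rose and 8 fell, with a median of 0.15. The list also holds other enzymes, such as the carboxylesterase Ces1c, the epoxide hydrolases Ephx1 and Ephx2, Por, Adh4 and Aldh1a1. Cyp17a1, the steroid 17-hydroxylase, gave 6.74, 6.77 and 6.68 on day 3 and 9.53, 9.61 and 9.44 on day 8. The rise was 6.94-fold (2.80 ± 0.17 SE; adjusted p = 1.25e-11, limma) after means of 4.86 on day 1 and 5.76 on day 2. Cyp1a1, the target of the aryl hydrocarbon receptor, and Cyp3a23-3a1, the main steroid-inducible CYP3A, rose 4.11-fold and 3.30-fold, and both were chosen after their values were seen. Cyp2e1, which oxidises ethanol, rose 1.67-fold from 8.57, 8.66 and 8.65 to 9.02, 9.58 and 9.51, and without replicate 2 of day 8 its adjusted p was 0.0513. Ces1c, a carboxylesterase with near-identical relatives, fell 3.91-fold by 1 probe set while the other differed by 0.01.

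Conjugating enzymes followed no single direction: of 37 measured, 6 rose and 10 fell. Ugt2b1, a glucuronosyltransferase, gave 9.28, 9.45 and 9.02 on day 3 and 11.78, 11.64 and 11.57 on day 8, a 5.34-fold gap (2.42 ± 0.12 SE; adjusted p = 5.52e-13, limma). Its relative Ugt2b10 fell 2.36-fold, and reads of such paralogues by short probes are uncertain. Among glutathione transferases Gstm3 rose 2.86-fold and Gstp1, the form absent from normal adult hepatocytes and high in dedifferentiated ones, fell 1.97-fold, from 11.83, 11.98 and 11.90 to 10.86, 10.94 and 10.97. Gstp1 had been at a mean of 12.79 on day 1.

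Of 20 measured genes of bile acid synthesis 4 rose and 4 fell. Cyp8b1, the 12-hydroxylase that sets the cholic acid share, gave 6.00, 6.00 and 6.28 on day 3 and 8.60, 8.80 and 8.38 on day 8, well separated and 5.66-fold higher (2.50 ± 0.12 SE; adjusted p = 2.8e-13, limma). Its mean had gone down from 6.97 on day 1 to 6.09 on day 3. Cyp27a1, the first enzyme of the alternative pathway, rose 1.56-fold. Cyp7a1, the rate-limiting enzyme of the classic pathway, lay between 4.25 and 4.70 on all 6 arrays, below the bound of 5.62, with a difference of 0.23 (adjusted p = 0.241, limma). Slc27a5, the ligase that recycles bile acids, fell 2.82-fold.

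Of 38 measured transporters 6 rose and 10 fell. The urate and phosphate carriers Slc17a3 and Slc17a1 fell 3.50-fold and 2.52-fold. Slc10a1, the sodium-dependent bile acid uptake carrier, went from 9.64, 9.77 and 9.34 to 9.07, 9.26 and 8.97, lower on every array but not past the threshold (-0.49 ± 0.17 SE; adjusted p = 0.0717, limma). With the replicate number as a block its adjusted p was 0.0339. Abcb11, the canalicular bile salt export pump, overlapped between the days, at 10.81, 10.61 and 10.30 and then 10.46, 10.54 and 10.01 (adjusted p = 0.47, limma). Abcb4, the canalicular phospholipid flippase, rose 1.94-fold, and was chosen after its values were seen.

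The liver transcription factors did not move as a block. Of 39 measured factors and nuclear receptors 11 rose and 7 fell, with a median of 0.09; without replicate 2 of day 8, 6 rose. Dbp, a clock-controlled factor, gave 5.98, 5.82 and 5.90 on day 3 and 7.88, 8.14 and 7.71 on day 8, a 4.02-fold rise with no overlap (adjusted p = 3.91e-12, limma). Its relative Tef rose 1.45-fold. Nr1i3, the xenobiotic receptor CAR, chosen after its values were seen, rose 1.75-fold, and without replicate 2 of day 8 its adjusted p was 0.0513. Hnf4a, the nuclear receptor at the top of the hepatocyte network, was at 11.40, 11.42 and 11.29 on day 3 and at 10.83, 10.94 and 10.77 on day 8. It fell 1.44-fold (-0.52 ± 0.10 SE; adjusted p = 0.000667, limma), after means of 10.85, 11.05 and 11.37 on days 1, 2 and 3, so the day 8 level equals that of day 1 to 2 decimals. Cebpa fell by 0.76 (adjusted p = 0.0431, limma), and leaving out 1 array in turn gave an adjusted p from 0.0488 to 0.212, past the threshold without replicate 3 of day 3 and in no other case.

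Chemokines moved in opposite directions. Of 34 measured genes of inflammation, 12 rose and 5 fell, with a median of 0.20. Cxcl11, a ligand of the receptor CXCR3, gave 7.65, 7.91 and 7.77 on day 3 and 5.06, 5.97 and 5.96 on day 8, 4.34-fold lower with no overlap (-2.12 ± 0.18 SE; adjusted p = 4.42e-09, limma). The other CXCR3 ligands Cxcl9 and Cxcl10, of which the latter was chosen after its values were seen, fell 2.53-fold and 2.48-fold. Cxcl2, a ligand of CXCR2 that draws neutrophils, went the other way, from 8.20, 8.03 and 8.10 to 9.62, 9.43 and 9.53, 2.67-fold higher (adjusted p = 3.81e-09, limma). Ccl2, the monocyte chemokine, rose 2.48-fold, and Cxcl1 1.34-fold, from 11.37, 11.15 and 11.12 to 11.76, 11.62 and 11.51, both chosen after their values were seen. Without 1 array in turn, the adjusted p of Cxcl1 ran from 0.0153 to 0.112 and stayed under 0.05 only without replicate 1 of day 3 or replicate 3 of day 8. Il1rl1, the receptor of interleukin-33, rose 4.46-fold. Of 31 measured interferon-induced genes 6 fell and none rose (limma; 14 lower and 2 higher at an unadjusted p under 0.05), among them the immunoproteasome subunits Psmb9 (1.64-fold) and Psmb8 (1.61-fold), while of the 31 measured constitutive proteasome genes only Psmd8, a lid subunit, passed, upward (adjusted p = 0.024, limma), and it did not pass without replicate 1 or 3 of day 3 or replicate 2 or 3 of day 8 (up to 0.105). Ltb, lymphotoxin beta, on none of these lists, fell 3.93-fold.

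The promoters of a chemokine that fell and of a chemokine that rose are printed to show where the letters searched for lie in each. Both are RefSeq sequences of assembly GRCr8, from 250 bases before to 50 after the start of the gene, 5′ to 3′ on the gene's strand, with the motif in capitals.
Cxcl10 (chr14:15988816-15989115, plus strand): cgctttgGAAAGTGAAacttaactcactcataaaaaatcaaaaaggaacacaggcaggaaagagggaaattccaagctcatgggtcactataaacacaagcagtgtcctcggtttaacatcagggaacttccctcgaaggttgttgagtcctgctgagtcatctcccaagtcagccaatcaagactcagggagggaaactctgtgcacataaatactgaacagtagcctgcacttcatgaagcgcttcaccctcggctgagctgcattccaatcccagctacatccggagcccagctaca
Cxcl1 (chr14:17479272-17479571, minus strand): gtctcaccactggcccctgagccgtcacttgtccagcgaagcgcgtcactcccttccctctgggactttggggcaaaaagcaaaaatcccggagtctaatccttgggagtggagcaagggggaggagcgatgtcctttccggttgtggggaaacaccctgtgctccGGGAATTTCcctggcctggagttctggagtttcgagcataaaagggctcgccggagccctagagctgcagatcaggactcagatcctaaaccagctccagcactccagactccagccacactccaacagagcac
In Cxcl10 the capitals mark GAAANNGAA, the form that interferon-regulated factors bind, 243 bases before the start. In Cxcl1 they mark GGGANTTTC, an NF-kappaB type of site, 84 bases before the start. On either strand, GAAANNGAA was in 3 of the 5 promoters available for the interferon-induced genes that fell (Gbp2, Psmb8 and Tap1), in 1 of 5 for the inflammation genes that fell, and in 9.71% of 33469 rat promoters. GGGANTTTC was in 4 of 9 promoters of inflammation genes that rose (Tnfaip3, Nfkbiz, Nfkbia and Cxcl1) and in 1.15% of all promoters. The lists were drawn up as interferon-induced and as inflammation genes, so these shares are a description and say nothing about the late step. Members that were not called were not searched. A match describes the letters of the window, not binding. Other spellings of an NF-kappaB site were not counted, and the printed Cxcl10 window also holds letters of the broader form of that site, so these strings do not set the 2 promoters apart.

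Of 44 measured mesenchymal and dedifferentiation genes 19 rose and 4 fell (Car3, Tgfbr1, Lgals3 and Tubb6), with a median of 0.26. Vim, the intermediate filament of mesenchymal cells, had a mean of 7.15 ± 0.18 on day 3 and 10.52 ± 0.28 on day 8 (SD, n = 3 each). The rise was 10.3-fold with no overlap (3.37 ± 0.15 SE; adjusted p = 9.42e-14, limma), and was preceded by means of 5.94 on day 1 and 6.38 on day 2. Anxa1, an annexin low in normal hepatocytes, rose by 2.20 and S100a11, a calcium-binding partner of annexins, rose 1.78-fold from a bright level of 11.77, 11.71 and 11.89. Igfbp7, a secreted IGF-binding protein, rose by 2.63, from 5.50, 5.30 and 5.53 to 8.29, 8.14 and 7.78.

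Collagens and laminins rose in 14 of 43 measured members and fell in none (limma; 1 lower at an unadjusted p under 0.05), with a median of 0.21. Col1a2, a chain of type I collagen, gave 5.06, 4.62 and 4.52 on day 3 and 8.31, 6.95 and 6.46 on day 8, a difference of 2.50 ± 0.28 (SE; adjusted p = 4.61e-07, limma), and its other probe set gave 2.03. The day 8 arrays were wide apart, with replicate 1 highest. That array was also the highest of day 8 for Col3a1, Col4a1, Mgp, Acta2, Sparc and Tpm2. Col4a5, a basement membrane chain, rose 4.60-fold, from 6.52, 6.40 and 6.49 to 8.86, 8.89 and 8.27, and Lamc1, the laminin gamma-1 chain, 2.05-fold. Col1a1, the partner chain of Col1a2, was at 5.59, 5.57 and 5.88 and then 6.35, 5.74 and 5.92, overlapping and not called by this probe set (adjusted p = 0.178, limma), while its other probe set gave 0.88. Of 38 matrix proteases and inhibitors 8 rose and 2 fell, or 5 rose with dim probe sets left out, led by the protease Adamts1, from 4.21, 3.98 and 4.10 to 7.29, 6.66 and 6.20. Timp2, a metalloprotease inhibitor, and Plat, tissue plasminogen activator, rose 3.32-fold and 2.42-fold, although the other Timp2 probe set differed by 0.06.

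The markers of stellate cells and fibroblasts share members with the lists above, so their counts are not separate from those. Col1a2 and Col3a1 are also counted among the collagens, and Sparc and Lox among the mesenchymal genes. Of 18 measured 6 rose (Col1a2, Col3a1, Mgp, Sparc, Lox and Rgs5; 3 with dim probe sets left out) and none fell, and their summed level was 9.91 to 10.10 on day 3 and 10.48 to 11.09 on day 8. The defining markers Dcn, Lum, Lrat, Pdgfra, Postn and Thy1, and Lox, lay below 5.62 on both days. Acta2, smooth muscle actin, was at 7.47, 7.25 and 7.06 and then at 8.11, 7.26 and 7.28, which overlap (adjusted p = 0.636, limma). Of 13 bile duct markers 6 rose, the summed level went from 10.77 to 10.91 on day 3 to 11.33 to 11.47 on day 8, and Krt7, Krt19, Cftr, Cldn4 and Muc1 were below 5.62 on both days. Macrophage markers summed to 11.52 to 11.65 and 11.64 to 12.02. Of 17, 2 were higher (Lyz2 and Cd14, the latter lost in 5 of 6 fits with 1 array left out) and 1 was lower. That lower gene was Clec4f, a Kupffer cell lectin, 2.14-fold down, while Lyz2 rose 1.76-fold and Cd68 did not pass (-0.36, adjusted p = 0.055, limma; 0.0491 with the replicate number as a block). Endothelial markers summed to 9.78 to 9.90 and 9.98 to 10.18. Of 17, 3 were higher and 1 lower (2 to 4 and 0 to 1 with 1 array left out in turn). Below 5.62 on both days were 11, Pecam1, Kdr, Tie1 and Stab2 among them. No lymphocyte marker of 14, and no neutrophil or erythroid marker of 9, passed in limma, and at an unadjusted p under 0.05 the count was 0 in both lists. Below 5.62 on both days were 12 of the lymphocyte and 4 of the neutrophil and erythroid markers. The missing calls of such dim genes do not show that the content of these cells stayed the same. The part of other cell types in the matrix and mesenchymal changes was not tested.

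YAP target genes rose in 10 of 28 measured members and fell in none (limma; also 0 lower at an unadjusted p under 0.05), with a median of 0.25. Ccn2, the best known of them, a matricellular protein also called CTGF, gave 10.19, 9.92 and 10.26 on day 3 and 13.31, 13.27 and 13.02 on day 8. The gap was 8.44-fold (3.08 ± 0.15 SE; adjusted p = 2.46e-13, limma), and the means of days 1 and 2 had been 9.22 and 9.73. Ankrd1, a muscle-type ankyrin repeat protein, and Cav1, the caveola coat, rose by 1.40 and 1.60, and Amotl2, a junction protein that restrains YAP, 1.62-fold. Ccn1, the sister gene of Ccn2, chosen after its values were seen, rose 1.39-fold, from 6.63, 6.67 and 6.73 to 7.27, 7.16 and 7.02.

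The promoters of the sister genes Ccn2 and Ccn1 are printed to show where certain letters lie in each. These are the letters that TEAD factors, the DNA-binding partners of YAP, recognise. They are taken from the same RefSeq table and window, with GGAATG, or its complement CATTCC, in capitals.
Ccn2 (chr1:22624565-22624864, minus strand): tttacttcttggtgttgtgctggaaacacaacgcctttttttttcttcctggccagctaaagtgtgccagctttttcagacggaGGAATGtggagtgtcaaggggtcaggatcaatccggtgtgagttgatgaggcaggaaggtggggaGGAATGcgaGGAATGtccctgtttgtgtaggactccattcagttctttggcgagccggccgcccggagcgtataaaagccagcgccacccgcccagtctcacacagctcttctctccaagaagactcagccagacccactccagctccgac
Ccn1 (chr2:237225640-237225939, minus strand): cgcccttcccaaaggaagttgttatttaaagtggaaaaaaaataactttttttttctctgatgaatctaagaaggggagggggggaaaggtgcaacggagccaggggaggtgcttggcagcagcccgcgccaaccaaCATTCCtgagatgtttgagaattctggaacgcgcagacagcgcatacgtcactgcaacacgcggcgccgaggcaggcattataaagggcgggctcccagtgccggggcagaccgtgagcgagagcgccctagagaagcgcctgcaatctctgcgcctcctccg
Ccn2 holds 3 copies, 166, 101 and 92 bases before the start, and Ccn1 holds 1, 113 bases before the start. Of the 10 YAP targets that rose, 8 had a promoter in the table and 4 of those held the motif on either strand (Ccn2, Amotl2, Ccn1 and Ajuba), against 14.2% of all 33469 promoters. The list was drawn up as YAP targets, so this share is a description. A match describes letters, not binding, and whether the number of copies bears on the size of a rise was not tested.

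Actin and adhesion genes rose in part, and Cav1 is counted both among the YAP targets and among the adhesion genes. Of 37 actin cytoskeleton genes 12 rose and 1 fell; without replicate 1 of day 8, 7 rose. Tmsb4x, the actin monomer-binding thymosin, rose 2.06-fold from 12.57, 12.27 and 12.31 to 13.61, 13.34 and 13.33, and the regulatory light chain Myl12a 1.46-fold. Of 39 integrin and focal adhesion genes 11 rose and 2 fell, among them Itgb4, the hemidesmosome integrin (1.98-fold), and the tetraspanin Cd9 (1.93-fold). Of 40 junction genes 6 rose and 5 fell, where 2 or 3 fell without replicate 1 or 2 of day 3 or without replicate 1 or 3 of day 8. Cldn7 rose by 2.19 and Cldn1 2.18-fold, both claudins of tight junctions, while Cldn2, a pore-forming claudin, fell 2.16-fold, from 8.90, 8.98 and 8.61 to 7.81, 7.86 and 7.48. Nectin2, an adherens junction protein, rose 2.29-fold by its brightest probe set, while the others gave 0.10 and 0.45.

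Genes of the amino acid response, the programme of ATF4 that answers amino acid shortage, were lower. Of 30 measured 18 fell and 2 rose, with a median of -0.36, the lowest of all lists. Psph, the last enzyme of serine synthesis, fell 1.90-fold, from 8.80, 8.90 and 8.68 to 7.77, 8.03 and 7.80. Slc3a2, the heavy chain of amino acid exchangers, fell 1.72-fold, Mthfd2, a mitochondrial folate enzyme, 1.61-fold, and Ddit3, the stress factor CHOP, 1.66-fold. The members that rose were Atf3 (2.43-fold), which is also an immediate early gene, and Nupr1. Oxidative stress genes fell in 13 of 32 and rose in 2, with Akr1b8, an aldo-keto reductase of dedifferentiated liver, 1.94-fold lower and the mitochondrial dismutase Sod2 1.62-fold lower. Of 29 endoplasmic reticulum genes 7 fell and 2 rose; 4 fell without replicate 2 of day 3 or without replicate 3 of day 8. Xbp1, the factor of secretory capacity, fell 1.51-fold while Herpud1, a component of protein disposal, rose 1.79-fold.

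Of 41 measured cytosolic ribosomal protein genes 32 fell, by small amounts, and none rose (limma; 37 lower and 0 higher at an unadjusted p under 0.05), with a median of -0.31 and differences from -0.61 to 0.10. Rpl12, from the large subunit, fell 1.52-fold, from 13.36, 13.50 and 13.44 to 12.73, 12.78 and 12.97. The count depended on the processing: 21 fell without replicate 2 of day 3, 20 after quantile normalization and 14 with only the 6 arrays in the fit. Probe sets of ribosomal genes can take up signal from their many processed copies. Of 61 oxidative phosphorylation genes 7 fell and none rose (limma; 18 lower and 4 higher at an unadjusted p under 0.05), with a median of -0.10; 2 fell without replicate 2 of day 3 or without replicate 1 of day 8, and 13 after quantile normalization.

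Immediate early genes rose in 9 of 28 and fell in 1. Fosb rose by 1.55, from 4.88, 4.71 and 4.98 to 6.69, 6.37 and 6.15, and Klf6 2.00-fold, while Gadd45g, a growth arrest gene, fell 2.24-fold. Of 23 heat shock genes 5 rose and 2 fell; 3 rose without replicate 3 of day 3. Cryab, a small heat shock protein that binds intermediate filaments, rose 2.92-fold, from 9.61, 9.63 and 9.63 to 11.13, 11.20 and 11.17, and the inducible Hspa1a fell 1.69-fold. The glucocorticoid target Fkbp5 rose 1.65-fold by 1 probe set and by 1.43 on the log2 scale by the other.

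Few proliferation genes passed. Of 47 genes of DNA replication and mitosis none rose and 5 fell (Cks2, Mcm6, Lig1, Mcm7 and Aurka), where the counts at an unadjusted p under 0.05 were 1 and 9 (limma). Without replicate 3 of day 3 or replicate 1 of day 8 the fallen genes numbered 2, and without replicate 2 of day 8 only 1. Mki67, a marker of cycling cells, lay between 3.34 and 3.56 on all 6 arrays, near the lowest values of the array. Of 24 measured G1 cyclins and CDK inhibitors 2 rose (Ccnd2 and Ccng2) and 2 fell (Mdm2 and Cdk4). That is 8.33% each way, near the shares of 7.01% and 8.1% over all genes. Ccnd1, cyclin D1, was at 9.20, 9.98 and 9.99 on day 3 and at 9.87, 9.40 and 9.65 on day 8, overlapping (adjusted p = 0.857, limma). Its relative Ccnd2 rose by 2.17, from 5.35, 5.39 and 6.00 to 7.85, 7.60 and 7.82, and Mdm2, the p53 inhibitor, fell 1.49-fold.

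The same interval in monolayer gave a test of whether the late step differs under the double gel. The monolayer arrays enter no sandwich mean, but they share in the fitted spread behind every sandwich call. The test of the difference also contains the sandwich arrays, so it is not separate from the sandwich comparison. The late steps of the cultures differed in 1253 of 14217 genes (8.81%), with the sandwich step above the monolayer step in 651 (4.58%) and below it in 602 (4.23%). Of the 996 genes that rose in sandwich, 352 had a step above and 40 a step below that of monolayer, and for 604 no difference was called. Of the 1152 that fell, 41 had a step above and 231 a step below, and for 880 none was called. Genes chosen for a high or low sandwich step enter a difference that contains that step, so these splits follow in part from the choice and are a description. A missing call does not show that the cultures moved alike. Genes that rose in sandwich and fell in monolayer numbered 82, and 45 did the reverse.

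**Figure D3:**
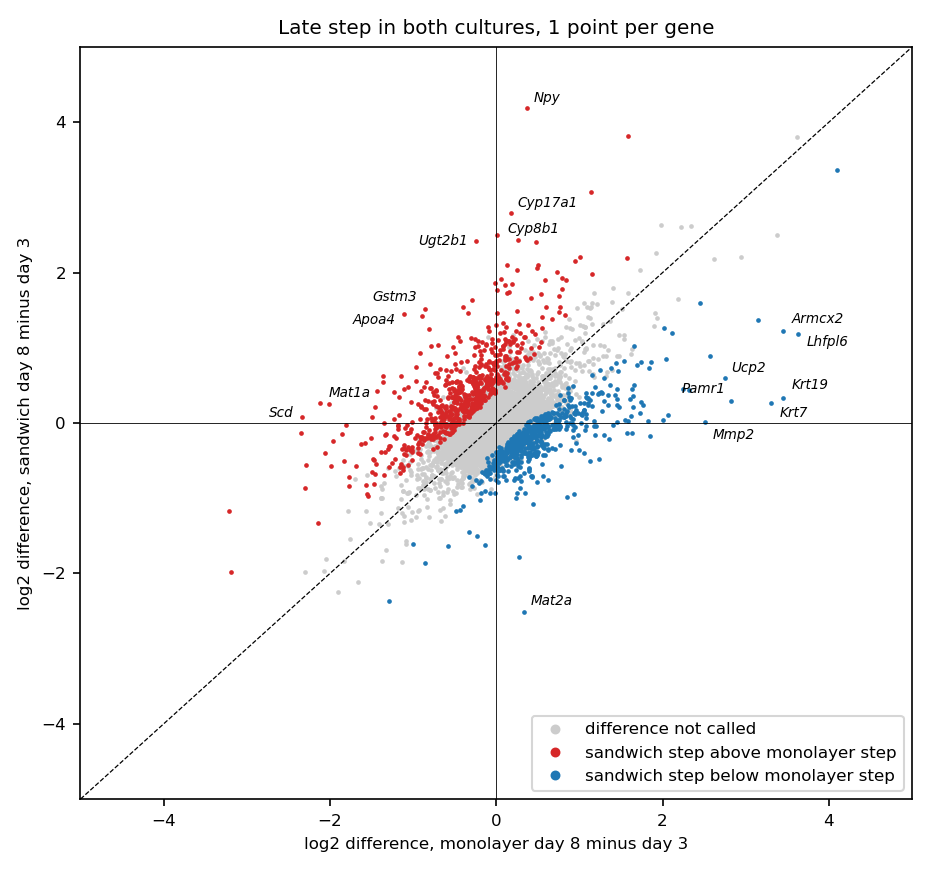
Log2 difference, day 8 minus day 3, in monolayer (horizontal) and in sandwich (vertical), 1 point per gene for 14217 genes. Red and blue mark genes whose sandwich step was called above or below the monolayer step, grey the rest, and the dashed line marks equal steps; the 16 labelled genes have the largest differences, from 3.81 for Npy to -3.11 for Krt19.

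The 8 genes whose late step lay furthest above that of monolayer were Npy, Ugt2b1, Cyp17a1, Apoa4, Cyp8b1, Scd, Mat1a and Gstm3. For Npy the sandwich step of 4.18 stood against 0.37 in monolayer, a difference of 3.81 (adjusted p = 2.62e-10, limma). Ugt2b1, Cyp17a1 and Cyp8b1 rose in sandwich and had monolayer steps of -0.24, 0.18 and 0.00, giving differences of 2.66, 2.62 and 2.50. Apoa4 and Gstm3 had monolayer steps of -1.11 and -0.85, opposite in sign to their rise in sandwich, with differences of 2.57 and 2.37. Scd and Mat1a differed by 2.42 and 2.38, with sandwich steps of 0.08 and 0.26 that were not called and monolayer steps of -2.34 and -2.12. Pck1 (2.17), Pex11a (1.92), Ccn2 (1.93), Pdk4 (2.24) and Cxcl2 (2.31) also had sandwich steps called above those of monolayer. For Ccn2 the monolayer had already reached a mean of 12.73 on day 3, against 10.12 in sandwich.

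**Figure D4:**
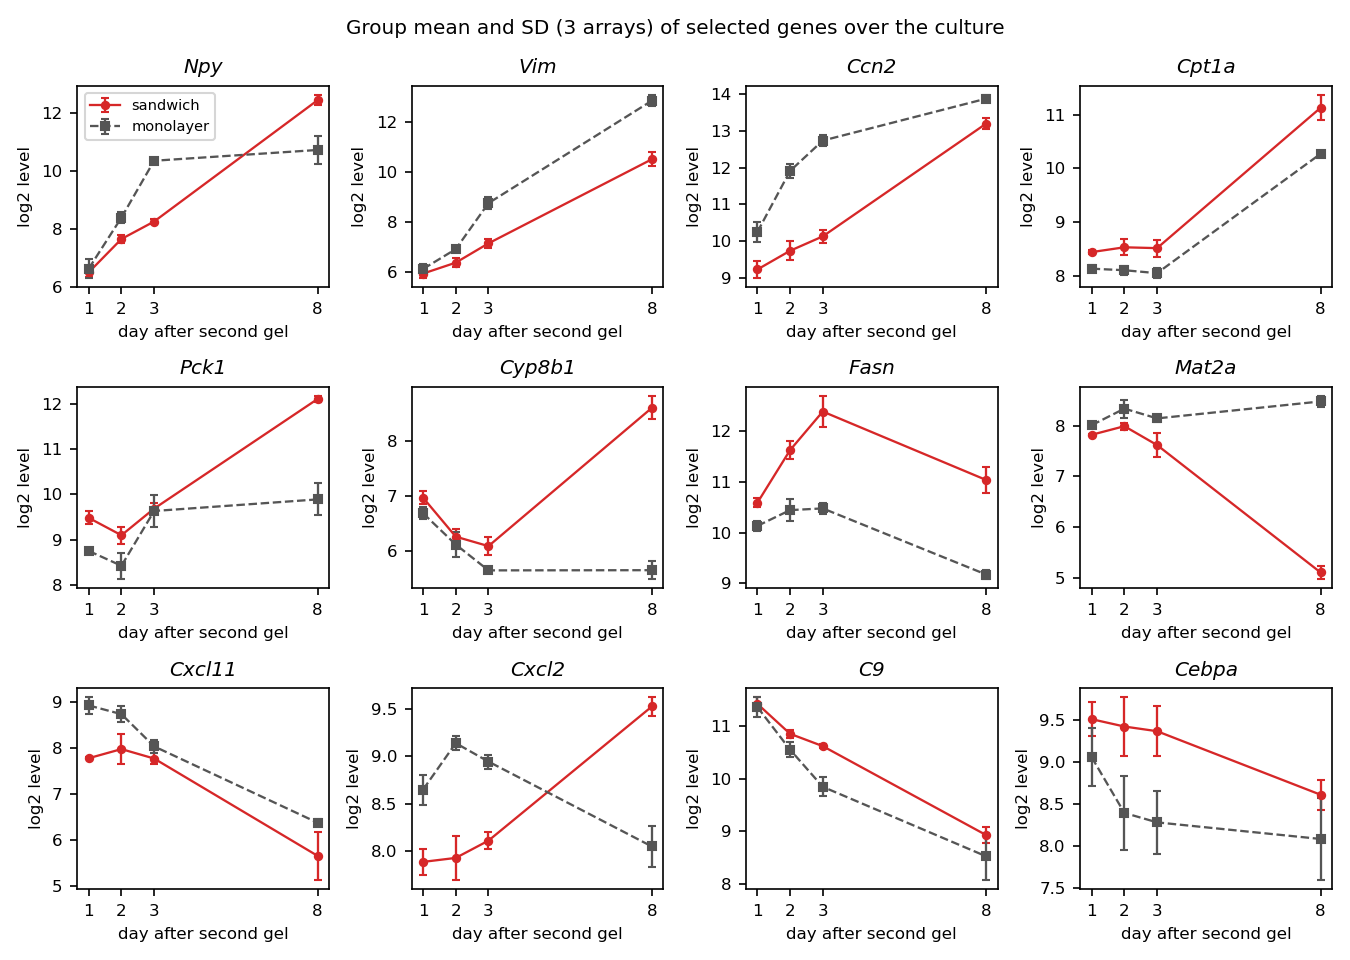
Group mean of the log2 level on days 1, 2, 3 and 8 for 12 genes in sandwich (circles, solid) and monolayer (squares, dashed), with SD of 3 arrays as error bars. Mat2a fell to a mean of 5.11 in sandwich and was at 8.48 in monolayer on day 8, and Cyp8b1 rose to 8.59 in sandwich and was at 5.66 in monolayer.

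The 8 genes whose late step lay furthest below that of monolayer were of several kinds: the keratins Krt19 and Krt7, the enzyme Mat2a, and Pamr1, Mmp2, Lhfpl6, Armcx2 and Ucp2. Krt19 and Krt7, keratins of bile duct cells, had monolayer steps of 3.45 and 3.31 and differences of -3.11 and -3.03. In sandwich Krt7 did not pass, and Krt19, at 4.49, 4.30 and 4.54 and then 4.92, 4.91 and 4.52, passed at an adjusted p of 0.0444 (limma) that ran from 0.0047 to 0.218 without 1 array in turn, and was over 0.05 without replicate 1 or 2 of either day. Mmp2, a gelatinase, lay between 5.01 and 5.65 on the 6 sandwich arrays and had a monolayer step of 2.50, a difference of -2.49; its other probe set gave a difference of 0.05 (adjusted p = 0.949, limma). Lhfpl6, Pamr1, Armcx2 and Ucp2 differed by -2.44, -2.54, -2.23 and -2.16, with monolayer steps from 2.75 for Ucp2 to 3.63 for Lhfpl6. Ucp2, a mitochondrial carrier on the fat oxidation list, rose 1.51-fold in sandwich. Mat2a had the largest difference among genes that fell in sandwich, with -2.51 there against 0.33 in monolayer (difference -2.84, adjusted p = 5.9e-12, limma). Gstp1 and Mdm2 also fell in sandwich and rose in monolayer, by 0.86 and 0.78, with differences of -1.84 and -1.35.

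By list, the differing steps of liver functions were mostly sandwich steps above those of monolayer. A step above can also be a smaller fall: of the 30 coagulation and complement genes, 15 fell in sandwich. Of 55 measured amino acid breakdown genes 27 had a sandwich step above and 1 a step below that of monolayer, where the median step was -0.50. Fat oxidation had 19 above and 2 below of 43, and the list that holds the P450s 18 and 3 of 42. Fat synthesis had 16 and 0 of 37, and coagulation and complement 13 and 1 of 30. Mesenchymal genes had 2 above and 11 below of 44, and oxidative stress genes 3 and 9 of 32. The Vim step was larger in monolayer, 4.10 against 3.37, a difference of -0.74 (adjusted p = 0.0365, limma) that lost its call in 6 of 12 fits with 1 array left out, up to 0.13: without sandwich replicate 1 of day 3 or 2 or 3 of day 8, and without monolayer replicate 2 of day 3 or 1 or 3 of day 8. Cps1, Tat, Cyp2e1 and Abcb11 had differences of 1.28, 1.32, 1.71 and 1.72, with monolayer steps of -1.23, -0.70, -0.97 and -1.96. Csad was the 1 amino acid gene below, at -2.06, since it fell in sandwich and had a monolayer step of 0.28 that was not called (adjusted p = 0.385, limma).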

How the data were processed

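The deposited table holds log2 values of 31099 probe sets on 24 Affymetrix arrays of rat hepatocytes. The authors made them with RMA, per the submitters' processing notes, which also name limma, without versions; genome build and annotation version are not given in the sources used here. No normalization was added. The 57 control probe sets were left out, and limma 3.58.1 in R 4.3.3 was fitted with 1 mean per group over all 24 arrays, with Benjamini-Hochberg adjustment over 31042 probe sets and a threshold of 0.05. The fit was tested on simulated data.

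Of the probe sets tested, 20826 carry 1 gene symbol, 436 several and 9780 none, giving 14217 genes, of which 4525 have several probe sets. Short probes can cross-hybridise between close relatives (Cyp4a, Ugt2b, Gstm, Ces1, Serpina3, ribosomal genes), so those are uncertain. Named are the 15 largest rises and falls among called genes whose days do not overlap, the 4 smallest p of each list, the 8 largest differences of late steps in each direction and 17 genes of general interest; genes outside this rule, list members named without values included, were chosen after their values were seen. The groups, the lists and the rule were chosen with earlier results of these data known.

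Same-numbered arrays of day 3 and day 8 deviated together (correlations 0.229, 0.377 and 0.377, others -0.283 to -0.073). A pairing by number is thus read from the data and not from a label. It enters only the alternative fits with the replicate number as a block, and the main fit has no replicate term. Alternatives were normalization, centring, a filter on dim probe sets, the arrays fitted, weights, the block, the choice of probe set and each array left out. Promoters are from the RefSeq table of assembly GRCr8, matched by symbol. For a listed gene the first entry was read, while the shares over all promoters count every entry.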

Additional observations from a re-analysis of the deposited data

Results flagged for a closer look

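For 76 genes whose values are given above, the change from day 3 to day 8 differed between sandwich and monolayer by the test of that difference itself (limma, adjusted p under 0.05). The sandwich step lay above the monolayer step for 49 of them and below it for 27. Leaving out each of the 12 arrays of both late steps in turn kept 68 of these calls, and the call of Ccl2, Cd5l, Cldn7, Clec4f, Klf6, Lss, Tmsb4x or Vim was lost without at least 1 array. These fits read the same probe set of each gene, so they do not test that choice. The Mmp2 difference was not seen by its other probe set. The sandwich steps of S1pr1, Cd5l and Eci1, for example, were seen by 1 probe set, and the size of the Mat2a step depends on the probe set. No group holds over 3 arrays, so single arrays were not screened as outliers. Differences below are log2, sandwich step minus monolayer step.

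In lipid metabolism the difference was 2.24 for Pdk4, 1.92 for Pex11a, 1.38 for Slc27a2, 1.32 for Cyp4a1, 1.31 for Cyp4a3, 0.95 for Eci1 and 0.90 for Plin2, and negative for Angptl4 (-0.76) and Ucp2 (-2.16). It was 2.42 for Scd, 2.05 for G0s2, 1.53 for Lpin1, 1.21 for Pnpla3, 1.87 for Insig1 and 0.53 for Lss. G0s2 and Pnpla3 fell in sandwich and fell further in monolayer. Among glucose and amino acid enzymes it was 2.17 for Pck1, 1.24 for Pfkp, 2.38 for Mat1a, 1.43 for Got1, 1.32 for Tat, 1.28 for Cps1 and 1.24 for Gnmt, against -2.84 for Mat2a and -2.06 for Csad.

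In detoxification and bile formation the difference was 2.66 for Ugt2b1, 2.62 for Cyp17a1, 2.50 for Cyp8b1, 2.37 for Gstm3, 1.71 for Cyp2e1, 1.18 for Cyp3a23-3a1, 0.81 for Cyp27a1, 1.72 for Abcb11, 1.15 for Abcb4 and 0.80 for Slc17a1. It was -1.27 for Slc27a5, the bile acid ligase, and -1.84 for Gstp1. Among secreted proteins it was 3.81 for Npy, 2.57 for Apoa4 and 1.87 for Apoc1, with -1.05 for C4bpb and -0.86 for Itih2.

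Inflammatory genes had differences of 2.31 (Cxcl2), 1.32 (Cxcl1), 1.21 (Il1rl1) and 0.92 (Ccl2), and Gbp2, an interferon-induced GTPase, had -1.27. The receptor S1pr1 had -1.08 and Cd5l -1.01. Stress, clock and growth genes had 1.27 (Dbp), 0.76 (Fkbp5), 0.73 (Herpud1), 0.66 (Sod2), 0.58 (Klf6), -0.68 (Gadd45g), -0.80 (Slc3a2), -0.99 (Ddit3), -1.35 (Mdm2) and -1.38 (Hspa1a). Matrix, adhesion and cytoskeletal genes had 1.93 (Ccn2), 1.19 (Col4a5), 1.00 (Cd9), 0.91 (Nectin2), 0.79 (Tmsb4x), 0.62 (Cldn7), 0.47 (S100a11), -0.74 (Vim), -1.78 (Col4a1), -2.23 (Armcx2), -2.44 (Lhfpl6), -2.49 (Mmp2), -2.54 (Pamr1), -3.03 (Krt7) and -3.11 (Krt19). The macrophage markers Cd68, Lyz2 and Clec4f had -1.36, -1.05 and -0.70, and the part of other cell types in any of these differences was not tested.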

How the results depend on the processing

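With only the 6 arrays in the fit, 2312 probe sets and 1404 genes were called, 1035 of the probe sets lower. Leaving out 1 of the 6 arrays in turn gave 2619 to 3173 called probe sets, 1334 to 1611 higher, 1027 to 1747 lower (lowest without replicate 2 of day 3) and 1600 to 1992 genes. For the difference of late steps, leaving out 1 of 12 arrays gave 1414 to 1825 calls against 1908. With the replicate number as a block, 4207 probe sets were called, and 2512 for the difference of late steps; on the 6 arrays with the block it was 3814. The block kept all 178 calls of named genes in sandwich and all 88 of their differences, and changed no call printed above other than those named beside it and those of differences not printed there. Quantile normalization gave 3809, centring each array on its median 3104, leaving out dim probe sets 3496, the 12 sandwich arrays 2966, array weights 3422 and the interquartile range as covariate 4327. With only the 6 arrays, 7 actin genes rose, and 3 endoplasmic reticulum, 3 junction, 1 replication and 1 oxidative phosphorylation gene fell. The difference of late steps turned sign for Map2, to -1.09 (past the threshold, limma) with the mean of its probe sets, and for Mmp2, to 0.0547 (not past it) with the probe set of smallest p; these follow from the other probe set read. No named call of the sandwich step turned direction under any setting run. The 3' minus 5' differences after quantile normalization, chosen after seeing the data, differed between the days with exact permutation p from 0.2 to 0.5. The number of arrays, 3 a group, limits the precision.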
